A study of Arabidopsis thaliana with 13 samples.

Results

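MIR396a and MIR396b are the loci of the miR396 family in Arabidopsis thaliana. They were taken by name (ath-MIR396a and ath-MIR396b), 2 of the 325 miRNA genes in the miRNA-seq table, and are described one by one, as a sum and as a ratio. All 13 libraries, controls included, share the genotype pAP1:AP1:GR ap1 cal in the Landsberg ecotype. In these plants a fusion of AP1 and the glucocorticoid receptor (GR) is expressed from the AP1 promoter. Without dexamethasone (DEX) the ap1 cal double mutant makes masses of meristems, and DEX lets the fusion protein enter the nucleus so that many flowers start at the same time. Groups were untreated seedlings of the vegetative stage (n = 3), inflorescences of day 0, collected before DEX (n = 2), and inflorescences of day 2 (n = 3), day 4 (n = 2) and day 8 (n = 3) of daily DEX treatment. One library with a title of day 2 and DEX as agent carries a time label of 0 days and was kept as day 2. The labels call the samples replicates but do not say that they came from separate plants, so the p-values below measure the spread between these libraries.

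miRNAs of the miR396 family guide the cleavage of transcripts of GROWTH-REGULATING FACTOR (GRF) genes. GRF proteins act with GRF-INTERACTING FACTOR coactivators and keep cells of leaf and flower primordia dividing, and miR396 is known to accumulate in leaves as cell proliferation ends. TCP transcription factors, which are themselves targets of miR319, raise miR396 in Arabidopsis leaves.

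The mature sequences are shown first because they set how reads of the loci can be told apart. Each locus gives a mature miRNA from the 5p arm and another from the 3p arm of its hairpin (RefSeq, TAIR10.1, 5′ to 3′). The seed, bases 2 to 8, is in capitals.
miR396a-5p: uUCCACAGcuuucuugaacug
miR396b-5p: uUCCACAGcuuucuugaacuu
miR396a-3p: gUUCAAUAaagcugugggaag
miR396b-3p: gCUCAAGAaagcugugggaaa
The 5p miRNAs share their seed and are equal in 20 of 21 bases. The only substitution, with the base of miR396a first and positions counted from the 5′ end, is G21U. Searched in full and without mismatches, each 5p sequence has 1 match in the genome. Without the last base each has 2 matches, which are these loci, so that a 5p read without this base cannot be assigned to either. Only reads with 1 mapping place were counted, so such a read is missing from both loci and from their sum. Whether the alignment kept full 5p reads apart by this base was not tested. The values of the loci and their sum are therefore uncertain as a measure of mature miR396. The 3p miRNAs differ by U2C, U7G and G21A, and each has 1 match with or without its last base.

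The precursors are printed below with the mature miRNAs in capitals, since the table gives 1 value for a whole locus. MIR396a (AT2G10606) lies on the minus strand at chr2:4142323-4142473 and MIR396b (AT5G35407) on the plus strand at chr5:13611798-13611932 of TAIR10.1. Neither overlaps a protein-coding gene.
MIR396a: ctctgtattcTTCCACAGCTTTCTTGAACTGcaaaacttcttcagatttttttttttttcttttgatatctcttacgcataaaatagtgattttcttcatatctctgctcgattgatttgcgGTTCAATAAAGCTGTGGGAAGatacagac
MIR396b: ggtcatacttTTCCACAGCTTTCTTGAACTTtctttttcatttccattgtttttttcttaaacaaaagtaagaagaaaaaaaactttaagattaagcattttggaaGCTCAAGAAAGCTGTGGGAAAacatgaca
Of the 135 windows of 17 bases along the MIR396a precursor, 4 are also in the MIR396b precursor. The loci are thus distinct from each other outside the 5p miRNA. Reads of the 3p arm or the loop do not depend on the last base. Of the 135 windows of MIR396a, 106 occur once in the genome, as do 85 of the 119 windows of MIR396b. Reads that lie within the other windows can have more than 1 mapping place. Which arm the counted reads came from is not given in the table.

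The sites in GRF transcripts show where the last base could matter for pairing. The motif TTCAAGAAAGCNTGTGGAA was searched on the sense strand of RefSeq transcripts and is in 7 of 27444 genes (0.0255%), all of them GRF genes (GRF1, GRF2, GRF3, GRF4, GRF7, GRF8 and GRF9 of the 9 in the family) and each time in the coding sequence. The motif is the reverse complement of miR396a-5p without its last bases, with a free base (N) between positions 7 and 8. This form was set beforehand, so the hits do not test which genes are targets. Without the free base the motif is in 0 genes (0%). A shorter form, TTCAAGAAAGC, is in 118 genes (0.430%). The 4 forms of the site are printed here, with the base that stays unpaired between positions 7 and 8 of the miRNA in capitals.
GRF3: ccgttcaagaaagcCtgtggaa
GRF1: tcgttcaagaaagcCtgtggaa
GRF7: tcgttcaagaaagcAtgtggaa
GRF9: acgttcaagaaagcTtgtggaa
They lie at chr2:15271745-15271766 on the minus strand (GRF3, exon 3), chr2:9729944-9729965 on the plus strand (GRF1, exon 3), chr5:21795145-21795166 on the plus strand (GRF7, exon 2) and chr2:18746292-18746313 on the plus strand (GRF9, exon 2). GRF2 has the site of GRF1, GRF4 that of GRF3 and GRF8 that of GRF7. The last base of miR396a-5p can form a Watson-Crick pair with the sites of GRF3 and GRF4, and that of miR396b-5p with the site of GRF9. Neither can do so with GRF1, GRF2, GRF7 or GRF8, where only a G:U wobble with miR396a-5p is possible. At all 7 sites position 20 is unpaired with both miRNAs, so any pair of the last base would lie beyond a mismatch. GRF mRNA levels were not analysed here.

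The values are RPM, the reads of a miRNA gene scaled to the mapped reads of the library. The smallest step between values gave an estimate of depth, 926300 to 2142752 mapped reads in inflorescence libraries and 148673 to 366691 in seedling libraries, so that 1 read stood for 0.467 to 1.08 RPM in the inflorescence libraries and for 2.73 to 6.73 RPM in the shallower seedling libraries. By the deposited run names the seedlings belong to run 1, the libraries of days 0 and 2 to run 2 and those of days 4 and 8 to run 3, taking each named run to cover the unnamed libraries listed after it. Comparisons of day 2 with day 0 and of day 8 with day 4 are therefore within a run. In all others, stage and run cannot be told apart. The tissue labels were set against miRNAs of developmental phase. The vegetative miR156 and miR157 loci (10 loci) summed to 14.1 to 50.8 RPM in inflorescences, against 254 to 362 RPM in seedlings. Not every locus followed the sum. MIR156e, MIR157a, MIR157b and MIR157d were at 0 in seedlings. Of these, MIR157d had reads in every inflorescence group and MIR157a on day 2 only. The miR172 loci (5 loci), which mark the reproductive phase, summed to 12.7 to 61.0 RPM in inflorescences, against 0 to 6.73 RPM in seedlings. MIR172a, MIR172b, MIR172c and MIR172d were at 0 in seedlings, where 3 reads are 8.18 to 20.2 RPM, but MIR172a, MIR172b and MIR172c were also at 0 on days 0 and 8, and MIR172b and MIR172c on day 4.

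Both MIR396 loci had their highest levels in seedlings, and in inflorescences they followed different courses. MIR396a measured 92.7, 141 and 113 RPM in seedlings, 34.4 and 14.4 RPM on day 0, 19.1, 16.9 and 13.4 RPM on day 2, 11.9 and 14.1 RPM on day 4, and 28.4, 28.6 and 27.9 RPM on day 8. All seedling libraries lay above all inflorescence libraries, day 2 overlapped with day 0 and with day 4, and the day 8 libraries lay within the range of day 0. MIR396b measured 218, 209 and 340 RPM in seedlings, 104 and 66.9 RPM on day 0, 42.5, 71.3 and 56.4 RPM on day 2, 0 and 5.29 RPM on day 4, and 11.2, 9.77 and 12.1 RPM on day 8. Here days 0 and 2 overlapped, and days 4 and 8 each stood below them and apart from each other. The 0 on day 4 is a count of 0 reads, which allows up to 3.24 RPM (3 reads), and the other day 4 library held 9 reads (5.29 RPM, 95% exact Poisson interval 2.42 to 10.03). Limits and intervals of this kind cover counting error alone, because reads without molecular identifiers are not independent molecules.

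The sum of both loci averaged 371 ± 73.9 RPM in seedlings (SD, n = 3), 110 ± 40.4 RPM on day 0 (n = 2), 73.2 ± 13.6 RPM on day 2 (n = 3), 15.6 ± 5.31 RPM on day 4 (n = 2) and 39.3 ± 0.833 RPM on day 8 (n = 3). Of all RPM of miRNA genes in a library, the sum of both loci made up 1.81% to 2.09% in seedlings. On day 0 it made up 0.310% to 0.477%, and on day 2 0.264% to 0.309%. On day 4 it made up 0.0401% to 0.0701%, and on day 8 0.121% to 0.134%. Among the miRNA genes of a library, MIR396b ranked 7 to 8 in seedlings, 14 to 16 on day 0, 17 to 18 on day 2, 50 in the day 4 library in which it had reads and 36 to 43 on day 8. MIR396a ranked 10 to 14 in seedlings, 20 to 29 on day 0, 24 to 31 on day 2, 30 to 37 on day 4 and 22 to 23 on day 8, so that it stood behind MIR396b up to day 2 and ahead of it from day 4.

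**Figure D1:**
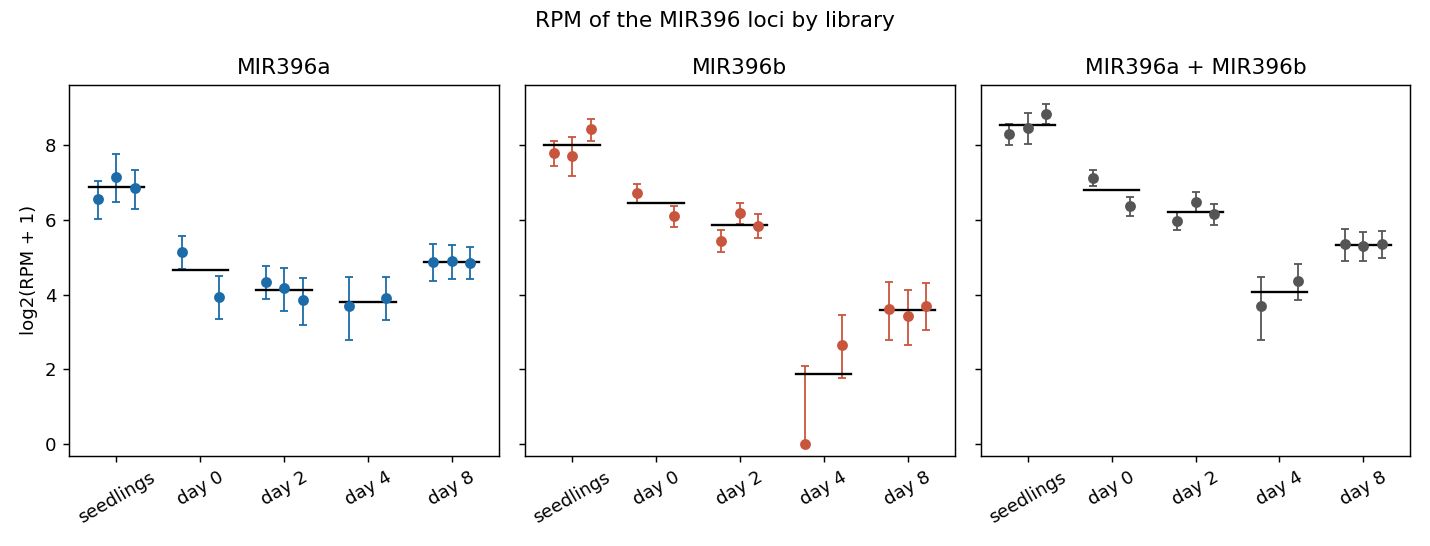
Level of MIR396a, MIR396b and their sum, as log2(RPM + 1), in each library by stage; points are libraries with 95% exact Poisson intervals (for the library at 0, the limit of 3 reads) and black lines are group means. MIR396a stays between 11.9 and 34.4 RPM in inflorescences, while MIR396b lies between 42.5 and 104 RPM on days 0 and 2 and between 0 and 12.1 RPM on days 4 and 8.

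The first question was how inflorescences differ from vegetative seedlings. MIR396a averaged 24.4 ± 14.1 RPM on day 0 (n = 2) and 116 ± 24.4 RPM in seedlings (n = 3), 4.75-fold lower on day 0. The difference of log2(RPM + 1), a scale on which folds of low values come out too small, was -2.30 (SE 0.37, adjusted p = 0.00020 in limma). It was -2.90 without day 0 replicate 1 and -1.70 without day 0 replicate 2, and passed in both. MIR396b averaged 85.4 ± 26.2 RPM on day 0 and 256 ± 73.5 RPM in seedlings, 2.99-fold lower on day 0 without overlap (log2 difference -1.57, SE 0.58, adjusted p = 0.043 in limma). With the authors' quantile-normalized RPM the difference was -3.29. The call for MIR396b in the deposited RPM did not hold without any 1 of 10 of the 13 libraries, all but seedlings replicate 2 and the day 4 libraries (highest adjusted p 0.24). The sum fell by 1.78 (SE 0.30, adjusted p = 0.00039 in limma), and its call held in every fit that left out 1 library (-2.16 without day 0 replicate 1, -1.40 without day 0 replicate 2) and with quantile-normalized RPM (-3.17). Of the 153 genes tested, 15.7% were called lower on day 0 than in seedlings and 45.8% in either direction, and of the 115 family sums 13.9% were called lower. The median difference of all genes was 0.59, upwards, and 0.15 with quantile-normalized RPM. The shallower seedling libraries held 62 to 79 genes above 0, against 118 to 140 in inflorescence libraries. Genes without reads in seedlings can raise this median, so it was not read as a general direction. In bulk tissue, fewer cells of a type and less RNA per cell cannot be told apart.

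Between day 8 and seedlings the loci were set further apart. MIR396a averaged 28.3 ± 0.357 RPM on day 8 and 116 ± 24.4 RPM in seedlings, 4.09-fold lower on day 8 (log2 difference -1.97, SE 0.33, adjusted p = 0.00020 in limma, n = 3 each). MIR396b averaged 11.01 ± 1.15 RPM on day 8 and 256 ± 73.5 RPM in seedlings, 23.2-fold lower on day 8 (log2 difference -4.39, SE 0.52, adjusted p = 1.5e-05 in limma). Of the 153 genes, 15% were called lower. The sum fell by 3.19 (SE 0.27, adjusted p = 6.3e-07 in limma), where 12.2% of the 115 family sums were called lower. With quantile-normalized RPM the difference was -6.22 for MIR396b and -4.57 for the sum.

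From day 0 on, the series follows inflorescence meristems into developing flowers. In the first step, MIR396a averaged 16.5 ± 2.89 RPM on day 2 (n = 3) and 24.4 ± 14.1 RPM on day 0 (n = 2), a log2 difference of -0.43 (95% interval -1.10 to 0.24, adjusted p = 0.70 in limma). MIR396b averaged 56.7 ± 14.4 RPM on day 2 and 85.4 ± 26.2 RPM on day 0, a log2 difference of -0.58 (95% interval -1.55 to 0.39, adjusted p = 0.71 in limma). The ranges of both loci overlapped between these days, which are of 1 run. With limma, 0 of the 137 genes tested passed between day 2 and day 0 (0%), 11 had an unadjusted p under 0.05, and no alternative fit called a gene. The sum differed by -0.55 (95% interval -1.09 to 0.0015, adjusted p = 0.45 in limma), where 0 of the 106 family sums passed (0%) and 10 had an unadjusted p under 0.05. The intervals leave room for a fall of either locus by more than 2-fold.

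Between day 4 and day 2 the loci parted. MIR396a averaged 12.99 ± 1.57 RPM on day 4 (n = 2) and 16.5 ± 2.89 RPM on day 2 (n = 3), with overlapping libraries and a log2 difference of -0.31 (95% interval -0.98 to 0.36, adjusted p = 0.65 in limma). MIR396b averaged 2.64 ± 3.74 RPM on day 4 and 56.7 ± 14.4 RPM on day 2, a log2 difference of -4.49 (SE 0.47, adjusted p = 6.9e-08 in limma). Of the 137 genes, 7.3% were called lower. The size depends on day 4 replicate 1, which had no MIR396b read. The difference was -3.17 without that library, -5.82 without day 4 replicate 2, -3.45 with values under 3 reads raised to 3 reads and -3.08 with a pseudocount of 5 RPM, and it passed each time. The sum fell by 2.18 (SE 0.26, adjusted p = 2.1e-06 in limma), where 6.6% of the 106 family sums were called lower. These days are of different runs.

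Between day 8 and day 4, within run 3, both loci were higher on day 8. MIR396a averaged 28.3 ± 0.357 RPM on day 8 (n = 3) and 12.99 ± 1.57 RPM on day 4 (n = 2), 2.18-fold higher on day 8 without overlap (log2 difference 1.07, SE 0.32, adjusted p = 0.022 in limma). MIR396b averaged 11.01 ± 1.15 RPM on day 8 and 2.64 ± 3.74 RPM on day 4 (log2 difference 2.26, SE 0.47, adjusted p = 0.0014 in limma). The sum averaged 39.3 ± 0.833 RPM on day 8 and 15.6 ± 5.31 RPM on day 4, 2.52-fold higher on day 8 (log2 difference 1.32, SE 0.26, adjusted p = 0.0011 in limma). Of the 137 genes, 11.7% were called higher on day 8, and of the 106 family sums 13.2%. Without day 4 replicate 1, the number of genes called in either direction was 12 in place of 20. These calls rest on few libraries. The call for MIR396a was lost without day 2 replicate 2, day 4 replicate 1 or any 1 of the day 8 libraries (adjusted p 0.051 to 0.15), and those for MIR396b and the sum without day 4 replicate 1 (differences 0.93 and 0.98, adjusted p 0.11 and 0.055).

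Over the whole of the induction, MIR396a on day 8 did not differ detectably from day 0 (log2 difference 0.33, 95% interval -0.34 to 1.001, adjusted p = 0.54 in limma). MIR396b averaged 11.01 ± 1.15 RPM on day 8 and 85.4 ± 26.2 RPM on day 0, 7.76-fold lower on day 8 (log2 difference -2.82, SE 0.47, adjusted p = 8.5e-05 in limma). Of the 137 genes, 10.2% were called lower. The sum fell by 1.41 (SE 0.26, adjusted p = 0.00033 in limma), with 10.4% of the 106 family sums called lower. In the F test over the 4 stages with a change over 2-fold, MIR396b passed (log2 range of stage means 5.07, adjusted p = 4.4e-08 in limma), also without either day 4 library (3.75 without replicate 1 and 6.3999 without replicate 2). The sum passed too (range 2.72, adjusted p = 8.5e-07 in limma, 30.2% of the family sums called). MIR396a passed narrowly (range 1.07, adjusted p = 0.043 in limma), near the median range of all genes (1.00), and 27% of the genes passed. Without 1 of 7 libraries (each of day 2 and day 8, and day 4 replicate 1) MIR396a no longer passed (adjusted p 0.0504 to 0.14).

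**Figure D2:**
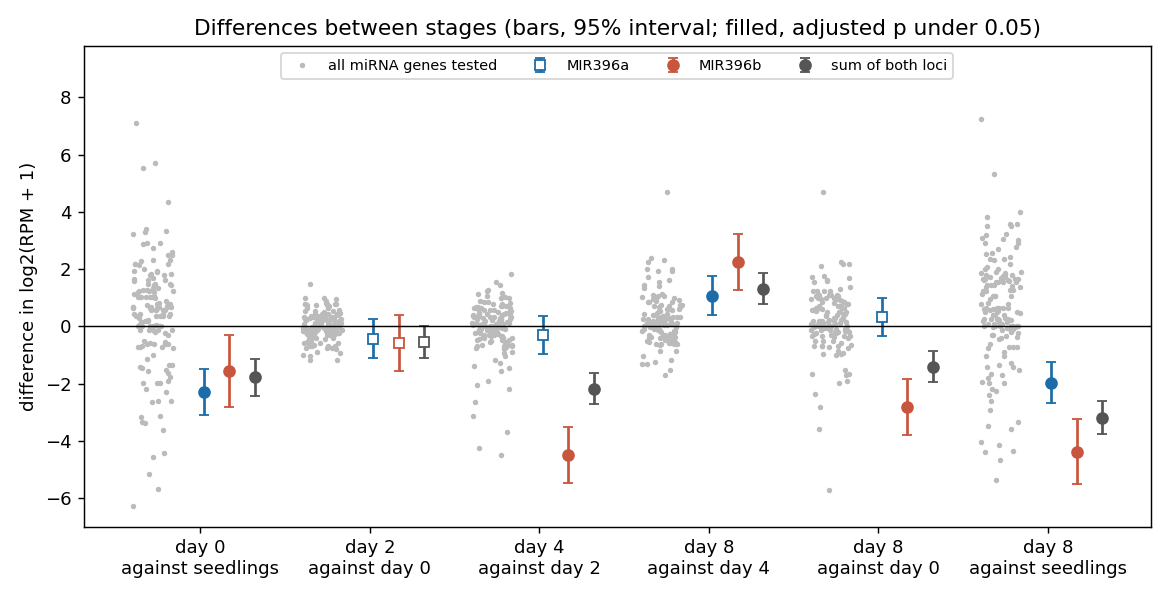
Differences in log2(RPM + 1) between groups, later stage minus earlier, for MIR396a, MIR396b and their sum, with 95% intervals from limma (filled, adjusted p under 0.05), beside all miRNA genes tested in grey. MIR396b on day 4 against day 2, at -4.49, lies far below most of the 137 genes, whereas MIR396a is at -0.31.

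The ratio of the loci shows the difference in their courses directly, since both were read in the same library. MIR396a made up 29.8%, 40.4% and 25.0% of the MIR396 sum in seedlings, 24.9% and 17.7% on day 0 and 31.1%, 19.2% and 19.2% on day 2. On day 4 it made up 100% (11 of 11 reads, 95% Clopper-Pearson interval 71.5% to 100%) and 72.7% (24 of 33 reads, 54.5% to 86.7%), and on day 8 71.7%, 74.5% and 69.8%. The libraries of days 4 and 8, at 69.8% to 100%, did not overlap with those of seedlings and days 0 and 2, at 17.7% to 40.4%. MIR396a was thus the larger part in all 5 libraries of run 3, and MIR396b in all 8 of runs 1 and 2.

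**Figure D3:**
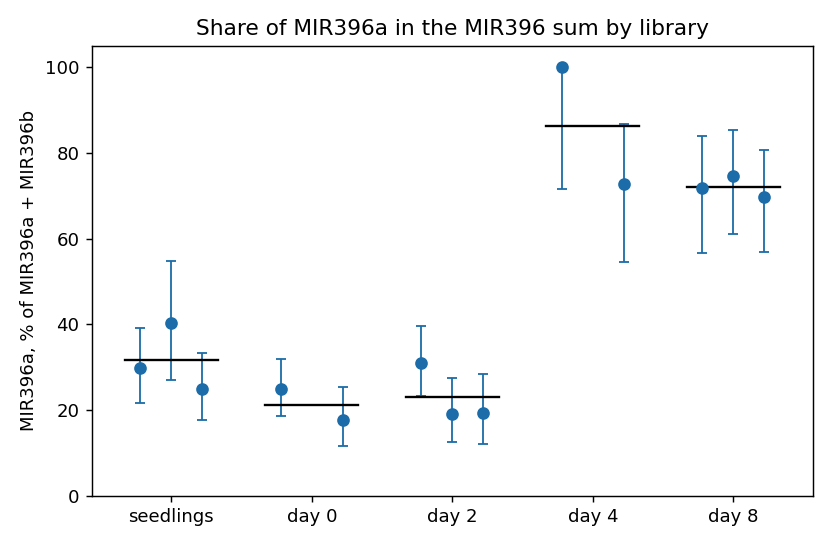
Share of MIR396a in the sum of MIR396a and MIR396b, in percent of RPM, for each library by stage, with 95% Clopper-Pearson intervals from the estimated reads and group means as black lines. The 5 libraries of days 4 and 8 lie at 69.8% or above and the other 8 at 40.4% or below.

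Across the 4 stages the log2 ratio differed in an exact permutation test of its F statistic over all 25200 assignments of the 10 inflorescence libraries (F = 17.9, p = 0.0046, range 0.0032 to 0.021 over the alternatives). Between day 4 and day 2 the ratio of MIR396a to MIR396b was higher by 4.18 in log2 units (SE 0.64), with an adjusted p of 0.00097 (limma over 42 pairs of loci of 1 family). Of these pairs, 11.9% were called higher and 28.6% in either direction. The size depends on day 4 replicate 1. It was 2.97 without this library, 5.39 without day 4 replicate 2 and 3.14 with values under 3 reads raised to 3 reads, and passed each time. Between day 8 and day 0 the ratio rose by 3.15 (SE 0.64, adjusted p = 0.0059 in limma), where 14.3% of pairs were called higher, a call lost without day 0 replicate 2 (2.86, adjusted p 0.053). Between day 8 and seedlings it rose by 2.41 (SE 0.58, adjusted p = 0.0050 in limma over 60 pairs), where 26.7% of pairs were called higher, and by 3.94 with quantile-normalized RPM.

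Within runs no change of the ratio was detectable. It differed by 0.15 between day 2 and day 0 (95% interval -1.32 to 1.61, adjusted p = 0.97 in limma, 2.38% of pairs called) and by -1.18 between day 8 and day 4 (95% interval -2.65 to 0.28, adjusted p = 0.30 in limma, 9.52% of pairs called). The second value rests on day 4 replicate 1, without which it was 0.028, and it passed without day 4 replicate 2 (-2.39, adjusted p 0.015). Between day 0 and seedlings, of different runs, it differed by -0.74 (95% interval -2.17 to 0.70, adjusted p = 0.36 in limma, 40% of pairs called). With all libraries in the fit, each called change of the ratio thus compares libraries of different runs, and stage and run cannot be told apart there.

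Because the sequences of the 5p miRNAs differ in their last base alone, other loci of this kind are given beside them. By script, 8 pairs of loci of 1 family had mature miRNAs that were equal except for the last base. Only miRNAs named alike, as 5p, as 3p or without an arm, were compared, so pairs named unlike are not counted. Over the stages, 3 of the 8 pairs were tested. The ratio of MIR164b to MIR164c, whose miR164 targets CUC boundary genes, differed by -1.26 between day 4 and day 2 (adjusted p = 0.014 in limma, 16.7% of pairs called lower) and by 2.37 between day 8 and day 4 (adjusted p = 0.0022 in limma, 7.14% called higher). The second change is within run 3, and on day 8 against day 0 the ratio was 1.13 higher (adjusted p = 0.029 in limma). The ratio of MIR169a to MIR169b, whose miR169 targets NF-YA genes, had no called change (day 4 against day 2 -1.002, adjusted p = 0.35 in limma). Over the stages the range of the log2 ratio was 4.33 for MIR396a and MIR396b (3.15 and 5.54 without day 4 replicate 1 or 2), 2.37 for the MIR164 pair and 1.35 for the MIR169 pair. Against seedlings, 2 further pairs were tested. The ratio of MIR398a to MIR398b, whose miR398 targets copper superoxide dismutase genes, was higher by 2.76 on day 0 and by 3.42 on day 8 (adjusted p = 0.013 and 0.0015 in limma), and that of MIR398a to MIR398c by 3.40 and 4.05 (adjusted p = 0.00011 and 6.5e-06 in limma). The MIR396 ratio differed there by -0.74 and 2.41. MIR398c averaged 5.51 RPM in seedlings, where 3 reads are 8.18 to 20.2 RPM, and 0 RPM on days 0 and 8. The size of its ratio change thus rests on few reads and on the pseudocount. In RefSeq, miR398b-3p and miR398c-3p are the same sequence, equal to miR398a-3p except for the last base. A read of just the shared sequence has more than 1 mapping place and was counted for neither MIR398b nor MIR398c. Both MIR398 ratios are therefore uncertain as a measure of mature miR398. How reads were divided between such loci by their last base was not tested.

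The miR319 and miR164 loci linked to miR396 through TCP factors did not move as one. Of them, MIR319b and MIR164a fell between days 2 and 4 as MIR396b did. Days 2 and 4 are of different runs, as are day 0 and seedlings, so stage and run cannot be told apart. The list held MIR319a, MIR319b and MIR319c, whose miR319 targets TCP genes, and MIR164a, which TCP factors also raise. All 4 were called higher on day 0 than in seedlings (median difference 4.22, against 0.59 over all genes, 30.1% of which were called higher), where both MIR396 loci were lower. For MIR164a this call rests on few reads. It averaged 6.99 RPM on day 0 and 0.909 RPM in seedlings. Both means are under the limit of 3 reads in seedling libraries (8.18 to 20.2 RPM), so the rise of MIR164a is uncertain. Between day 4 and day 2, 2 of the 4 rose and 2 fell (median -1.20, against 0.055 over all genes, 5.11% of which were called higher and 7.3% lower). MIR319b averaged 145 ± 27.6 RPM on day 4 and 2753 ± 262 RPM on day 2, a log2 difference of -4.25 (adjusted p = 4.7e-15 in limma). MIR164a was at 0 in both day 4 libraries and at 5.14 to 10.3 RPM on day 2 (adjusted p = 3.9e-05 in limma). MIR319a and MIR319c rose by 0.71 and 0.99 (adjusted p = 0.00078 and 0.00021 in limma). MIR319a and MIR319b encode the same mature miRNA in RefSeq, and only reads with 1 mapping place were counted. A read of just this mature sequence was therefore counted for neither locus. The values of MIR319a and MIR319b come from other reads of these loci and are uncertain as a measure of mature miR319.

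Between day 8 and day 4, MIR319b fell by 1.31 (adjusted p = 2.4e-05 in limma), while MIR396a and MIR396b were higher, and no other gene of the list was called (median -0.15, against 0.15 over all genes, 2.92% of which were called lower). MIR319c averaged 5851 ± 1217 RPM on day 8 and 5793 ± 426 RPM on day 4, a log2 difference of -0.0066 (95% interval -0.37 to 0.36). Between day 2 and day 0 none of the 4 passed (median -0.19, against -0.0082 over all genes).

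On day 8 against day 0, MIR319b fell by 5.74 and MIR164a fell by 2.38 (adjusted p = 6.4e-18 and 0.00073 in limma), as MIR396b did with -2.82. MIR319c rose by 0.78 (adjusted p = 0.0020 in limma), and MIR319a did not pass (0.13, 95% interval -0.16 to 0.43). The median of the list was -1.12, against 0.17 over all genes, 18.2% of which were called higher and 10.2% lower. On day 8 against seedlings, MIR319a and MIR319c rose by 7.24 and 3.502 (adjusted p = 2.9e-09 and 3.0e-08 in limma) and the other 2 did not pass, with a median of 1.74 in the list and 0.55 over all genes, 34.6% of which were called higher. These comparisons are also between runs.

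**Figure D4:**
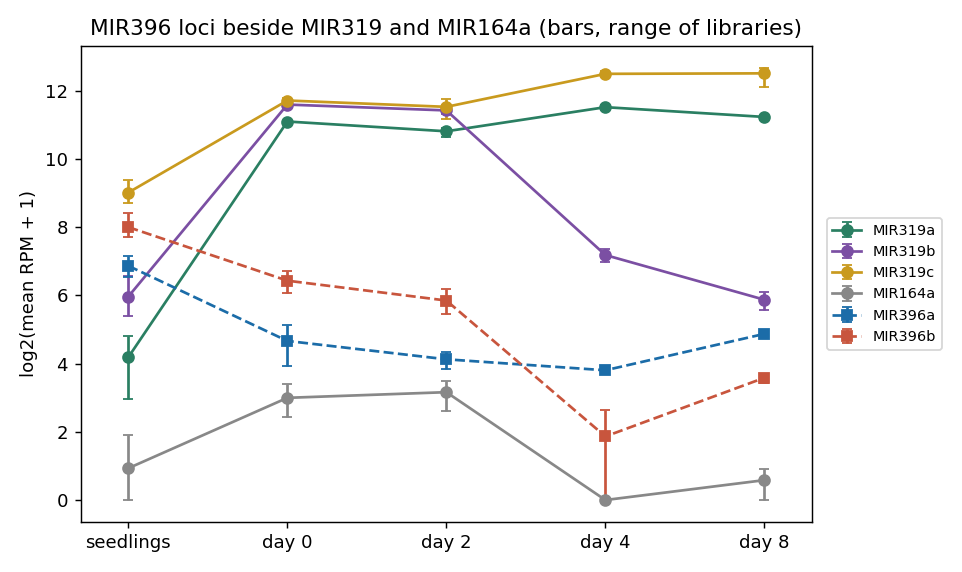
Group means of MIR319a, MIR319b, MIR319c and MIR164a (solid) and of MIR396a and MIR396b (dashed) by stage, as log2(mean RPM + 1), with bars over the range of the libraries. MIR319b and MIR396b lie lower on day 4 than on day 2, whereas MIR319a and MIR319c, both at 1617 RPM or above in inflorescences, lie higher.

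The genes with the profiles most like those of the loci were found by the root mean square (RMS) difference of centred group means of log2(RPM + 1) over the 5 groups, among 152 other genes. MIR396a was nearest to MIR869 (RMS 0.23), MIR863 (0.30) and MIR398c (0.37). MIR869 and MIR398c averaged 4.33 and 5.51 RPM in seedlings, under the limit of 3 reads there, and rest on few reads. MIR863 averaged 1561 RPM in seedlings, 253 RPM on day 0, 248 RPM on day 2, 269 RPM on day 4 and 537 RPM on day 8, with its lowest mean on day 2, whereas that of MIR396a was on day 4. MIR396b had no such near neighbour, with MIR827 (1.22), MIR399b (1.32) and MIR156c (1.55) as the closest. MIR827, which targets NLA in phosphate homeostasis, averaged 183 RPM in seedlings, 99.2 RPM on day 0, 127 RPM on day 2, 19.6 RPM on day 4 and 30.2 RPM on day 8. MIR396b stood at rank 122 of 152 in likeness to MIR396a (RMS 1.75), and MIR396a at rank 6 in likeness to MIR396b.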

How the data were processed

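Small RNA reads were trimmed by the authors (Trim Galore), aligned to TAIR10 (STAR) and counted over miRBase genes by STAR, which counts only reads with 1 mapping place. The authors deposited the counts as RPM, scaled to the mapped reads. Versions of Trim Galore and STAR for miRNA-seq were not given in the sources used here. A deposited table of RPM after quantile normalization served as an alternative, and 3 columns of no sample were not used. From the deposited RPM, levels were computed as mean ± SD and tested with limma 3.58.1 (R 4.3.3) on log2(RPM + 1) with 1 mean per stage and an intensity trend, for genes with at least 1 RPM in at least 2 libraries, in the 10 inflorescence libraries or, against seedlings, in all 13. Family sums were fitted alike, and differences between loci of 1 family without trend. The Benjamini-Hochberg adjustment covered all features tested (threshold 0.05). Reads were estimated from the smallest RPM step. All low values were whole multiples of it (tolerance 0.1), but 7 libraries held fewer than 100 such values, so no count model was used. Named genes are MIR396a, MIR396b, the list of MIR319a, MIR319b, MIR319c and MIR164a, and the 3 nearest profiles of each MIR396 locus. The fit was also run on simulated data without a difference between runs, which cannot test the comparisons between runs. Members and lists were chosen with earlier results of these data known. Tables and figures were made in Python 3.11.15 with scipy 1.17.1, numpy 2.4.6, matplotlib 3.10.9 and pandas 2.3.3. Alternatives covered pseudocounts, filters, scalings, trend, replicate block and each library left out. Raising values to 3 reads was added after seeing the data.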

Additional observations from a re-analysis of the deposited data

How the results depend on the processing

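Of 29 results, 670 values were recomputed under alternatives, of which 621 kept direction and side of the threshold, 42 lost it, 1 gained it and 6 changed sign. MIR396a between day 8 and day 4 lost its call with quantile-normalized values (1.07), TMM scaling (0.91), median-ratio scaling (0.92), without the trend and with seedlings in the fit (1.07 in both). MIR396a over the 4 stages lost it under the same settings with the same values, and with a pseudocount of 0.5 RPM (1.10). MIR396b between day 8 and day 4 lost it with quantile-normalized values (1.86). MIR396b between day 0 and seedlings lost it with a pseudocount of 0.5 RPM, no filter or no trend (-1.57 each), with TMM scaling (-1.16) and with the replicate block (-1.47). The cause was not tested. The replicate block changed none of the other 27 calls. Same-numbered libraries did not deviate together (13 pairs, r -0.17 to 0.15), so the numbers were not read as pairs. The ratio between day 0 and seedlings changed sign with quantile-normalized values (0.82). MIR396b on day 8 against day 4 was 1.16 with a pseudocount of 5 RPM, 1.21 with a floor of 3 reads and 2.75 with a pseudocount of 0.5 RPM.

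With each library left out, the ranges were 0.96 to 1.34 for MIR396a over the 4 stages, 0.96 to 1.19 for MIR396a between day 8 and day 4, -1.03 to 0.17 between day 2 and day 0 and -0.27 to 0.93 between day 8 and day 0. For MIR396b they were -1.88 to -1.25 between day 0 and seedlings and 0.93 to 3.58 between day 8 and day 4, and for the sum between day 8 and day 4 0.98 to 1.65. For the ratio they were -0.15 to 0.44 between day 2 and day 0 (-0.14 without day 0 replicate 2, -0.15 without day 2 replicate 1), -2.39 to 0.028 between day 8 and day 4 and 2.86 to 3.43 between day 8 and day 0. The sign turned for MIR396a between day 2 and day 0 without day 0 replicate 1 (0.17) and between day 8 and day 0 without day 0 replicate 2 (-0.27), and for the ratio between day 8 and day 4 without day 4 replicate 1 (0.028). The number of genes called over the 4 stages was 37, and 20 with a pseudocount of 5 RPM and 23 with a filter of 10 RPM. With that filter it was 43 in place of 70 between day 0 and seedlings and 41 in place of 76 between day 8 and seedlings, with seedlings in the fit 23 in place of 39 between day 8 and day 0, and without day 4 replicate 1 12 in place of 20 between day 8 and day 4. Median-ratio scaling moved the median of all genes between day 8 and day 0 to -0.016, against 0.17 without it, and quantile normalization moved that between day 0 and seedlings to 0.15, against 0.59.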
